A study of Mus musculus with 16 samples.

Results

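Described here are 36 genes for aminoacyl-tRNA synthetases, 20 of them cytosolic and 16 mitochondrial. They were found by matching the Ensembl identifiers of a count table to a list of gene symbols, with symbols ending in 2 taken as mitochondrial. These 36 genes are among 55356 identifiers in the table, and all 36 passed the filter on low counts that left 19156 genes for testing.

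The RNA came from embryonic dorsal root ganglion neurons, the sensory neurons that lie beside the spinal cord, of CD1 mice, cultured with nerve growth factor, fluorodeoxyuridine and uridine. At 6 days in vitro the neurons received 500 nM GNE3511, which inhibits DLK (dual leucine zipper kinase, encoded by Map3k12), or DMSO, and 15 min later 200 nM nocodazole, a drug that depolymerizes microtubules, or DMSO, for 16 h. The 4 groups of 4 libraries were inhibitor plus nocodazole, nocodazole after DMSO, inhibitor followed by DMSO, and DMSO followed by DMSO. The series title names DLK as the driver of a response to cytoskeletal stress, and the comparisons below ask how synthetase RNA differed with nocodazole and whether that difference was altered by the inhibitor. DLK was targeted with 1 compound at 1 dose, its activity is not measured in these data, and RNA was taken at 1 time. The labels do not say whether replicates were separate cultures, so the p-values reflect only how these libraries varied, which may be technical variation.

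Aminoacyl-tRNA synthetases join each amino acid to its tRNA, the step that supplies ribosomes with charged tRNA. The cytosolic enzymes feed cytoplasmic ribosomes, whereas the mitochondrial enzymes are encoded in the nucleus, imported and feed the ribosomes that make the proteins of the mitochondrial genome; Gars and Kars each encode both forms. Many cytosolic synthetase genes are known targets of ATF4, a transcription factor of the integrated stress response that binds the C/EBP-ATF response element, and in humans mutations in several of them, including those for the glycyl and tyrosyl enzymes, cause inherited neuropathy of peripheral nerves.

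The core of that element, TGATGNAA (N is any base), was searched on both strands in RefSeq promoter windows of build GRCm38.p6 that run from 250 bases before the gene start to 50 bases after it. A window was found for 13 cytosolic and 14 mitochondrial genes. The core was present in 5 of the 13 cytosolic windows, in 0 of the 14 mitochondrial windows, in 7 of 27 windows of known ATF4 targets and in 4.51% of 27025 genes with a window. The 5 stretches are shown because all 5 genes, Aars, Tars, Gars, Iars and Yars, rose with nocodazole (described below). They are written 5′ to 3′ in the direction of the gene, with the core, or its reverse complement, in capitals. The Iars and Yars stretches are short because their match lies after the start.
Aars: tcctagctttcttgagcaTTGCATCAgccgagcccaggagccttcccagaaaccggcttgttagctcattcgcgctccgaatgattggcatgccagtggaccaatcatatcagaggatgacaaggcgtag
Tars: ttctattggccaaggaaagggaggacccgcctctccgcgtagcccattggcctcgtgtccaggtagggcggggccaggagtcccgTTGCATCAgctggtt
Gars: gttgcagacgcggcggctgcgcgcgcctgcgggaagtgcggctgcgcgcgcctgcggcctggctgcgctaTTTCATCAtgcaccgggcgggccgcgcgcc
Iars: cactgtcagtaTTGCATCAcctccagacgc
Yars: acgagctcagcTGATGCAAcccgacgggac

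The Aars stretch lies at chr8:111033712-111033841 on the plus strand and the match shown begins 112 bases before the start; a second match in the Aars window begins at base 10, counted from 1 at the start, and lies outside the stretch. The Tars stretch is at chr15:11399659-11399758 on the minus strand and the Gars stretch at chr6:55037901-55038000 on the plus strand, with matches that begin 15 and 30 bases before the start. The Iars stretch is at chr13:49682126-49682155 and the Yars stretch at chr4:129189895-129189924, both on the plus strand. Among the 8 cytosolic genes whose window held no match, 2 rose with nocodazole (Eprs and Sars), 3 fell and 3 were not called. By the test described below, 18.6% of all genes tested rose and 19.0% fell. The share that rose among all genes holding the core was not computed. The cytosolic genes without a window were Cars, Hars, Lars, Nars, Rars, Vars and Wars. All of these but Hars rose with nocodazole, and whether they hold the core is not known here. The full cyclic AMP response element TGACGTCA was in no member's window, against 2.03% of all genes, and the AP-1 site TGANTCA was in the window of Qars alone among the members, against 8.97% of all genes. A match of letters is a description of the window and shows no binding.

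Total counts per library ran from 30987962 to 43321421. Counts of the 36 members in single libraries ran from 91 to 25084, so counting error was small for most of them. Sensory neuron markers (12 genes, Tubb3 and Rbfox3 among them) summed to 10010 to 12420 CPM (counts scaled to a common library size) in inhibitor-plus-nocodazole libraries, 9700 to 11330 in nocodazole, 11210 to 12850 in inhibitor and 13050 to 14230 in DMSO libraries. Of the 12, 8 fell with nocodazole by the test described below, where 19.0% of all genes tested fell and 18.6% rose. Glial markers (9 genes) summed to 74.2 to 138, 85.9 to 134, 87.4 to 154 and 151 to 175 CPM in the same order of groups, with none at 0. Of the 4 glial markers tested, 1 rose and 1 fell with nocodazole. Fibroblast markers (6 genes) summed to 1.40 to 2.45, 5.35 to 8.07, 2.04 to 4.39 and 2.11 to 5.07 CPM in that order, so all nocodazole libraries lay above all others, and 1 of the 5 tested rose with nocodazole. Endothelial, macrophage and dividing-cell markers each summed to at most 3.17 CPM in any library, and 1 of the 3 dividing-cell markers tested rose with nocodazole; Cldn5 and Cx3cr1 were at 0 in both inhibitor groups. The part of these marker differences in the results below was not tested, and in bulk RNA fewer cells of a type and less RNA per cell cannot be told apart. 

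Jun, a transcription factor gene induced through DLK signalling, gives a reading of the inhibitor. It had 0.841, 1.38, 1.40 and 1.44 CPM in inhibitor-plus-nocodazole libraries, 194, 181, 293 and 223 in nocodazole, 1.96, 0.843, 1.5 and 21.2 in inhibitor, and 38.9, 56.5, 94.2 and 91.6 CPM in DMSO libraries. Both inhibitor groups lay below both groups without inhibitor, and inhibitor replicate 4 stood apart from the other 3 of its group. Without that library, the comparison of inhibitor plus nocodazole with nocodazole also called Hars and Fars2, and the counts of members called in the other comparisons moved by at most 1.

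In DMSO neurons the cytosolic genes were the more abundant class. Per kilobase of exon, taken over all annotated exons of a gene, levels in DMSO libraries ran from 8.07 to 133 CPM per kb over the 20 cytosolic genes, with a median of 26.6, and from 1.45 to 14.3 CPM per kb over the 16 mitochondrial genes, with a median of 4.02. Gars, the glycyl enzyme of both compartments, stood first at 133 ± 7.36 CPM per kb (SD, n = 4), followed by Nars at 72.0 ± 2.40, Wars at 63.2 ± 3.10 and Hars at 59.3 ± 2.88 CPM per kb; the libraries of the last 2 overlap. At the low end of the cytosolic class, Farsa (9.94 ± 0.29) and Qars (8.07 ± 0.34 CPM per kb) lay below the mitochondrial gene Fars2 at 11.2 ± 0.16 CPM per kb, and the libraries of Cars (10.5 ± 1.1 CPM per kb) overlapped those of Fars2. Aars and Sars, at 48.5 ± 2.00 and 48.2 ± 3.12 CPM per kb, did not differ beyond their spread. Pars2 (1.45 ± 0.08 CPM per kb) and Nars2 (1.58 ± 0.10 CPM per kb) were the lowest of all members, and their libraries overlap. The mean of 14.3 CPM per kb for Lars2 carried an SD of 13.6.

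Nocodazole without the inhibitor was followed by higher RNA of most cytosolic synthetases and of few mitochondrial ones. Of the 20 cytosolic genes, 13 rose, 3 fell and 4 were not called by edgeR's quasi-likelihood test at a Benjamini-Hochberg adjusted p below 0.05; across all genes tested, 18.6% were called higher and 19.0% lower. Of the 16 mitochondrial genes, 2 rose, 5 fell and 9 were not called. The median log2 fold change was 0.39 over the cytosolic genes, -0.10 over the mitochondrial genes and 0.01 over all genes. All 4 nocodazole libraries lay above all 4 DMSO libraries for 12 cytosolic and 2 mitochondrial genes, against 18.0% of all genes, and below them for 3 and 3, against 18.9%.

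**Figure D1:**
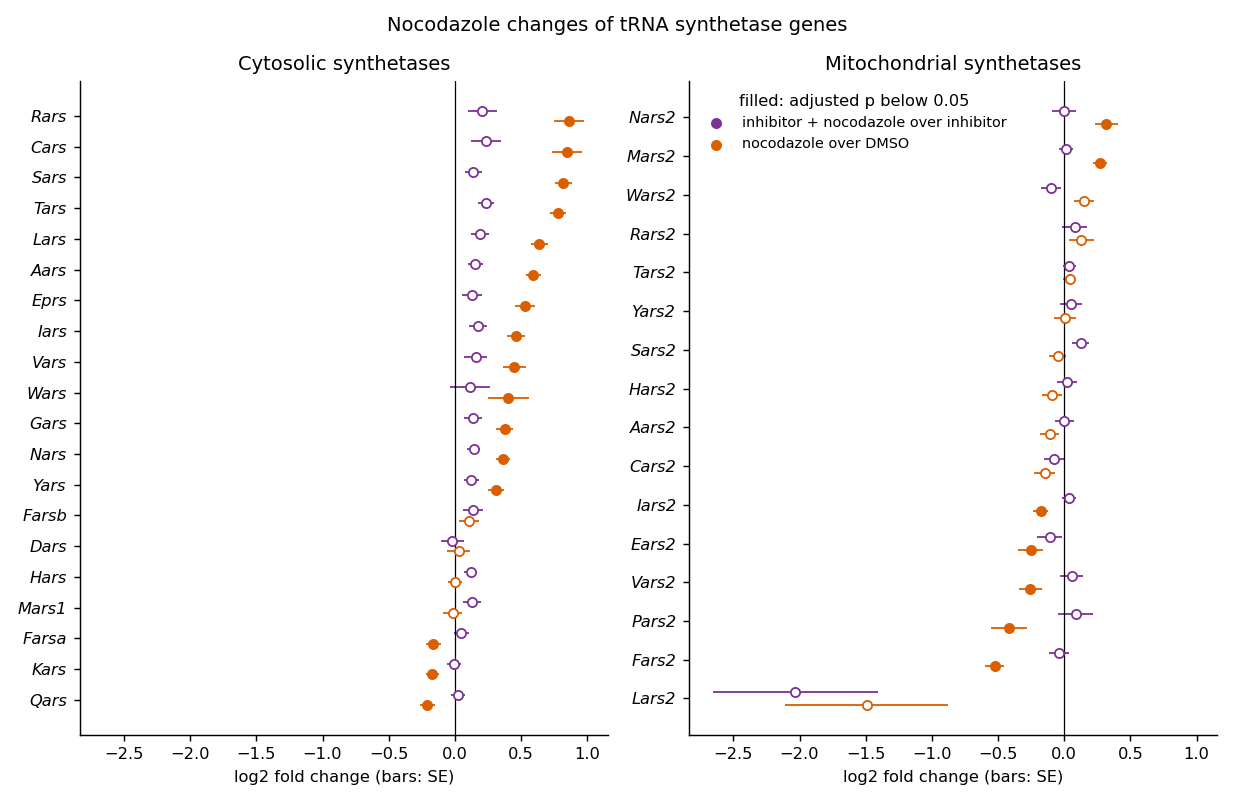
Log2 fold changes (points) with SE (bars) for the 20 cytosolic genes (left) and the 16 mitochondrial genes (right), for inhibitor plus nocodazole over inhibitor (purple) and nocodazole over DMSO (orange). Filled points have an edgeR adjusted p below 0.05. Filled orange points reach 0.86 among the cytosolic genes, and no purple point is filled.

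The seryl enzyme gene Sars had 433, 440.4, 439 and 437 CPM in the nocodazole libraries, against 242.5, 227, 258 and 262 CPM in the DMSO libraries. Its groups were far apart, and the nocodazole libraries lay closer to one another than the DMSO libraries did. The change was 0.82 ± 0.07 on the log2 scale (SE), or 1.77-fold, with an edgeR adjusted p of 1.33e-07. Tars, for threonine, had 118, 117, 118 and 119 CPM in nocodazole libraries, against 67.7, 63.5, 72.9 and 71.3 CPM in DMSO libraries, again without overlap and with tight nocodazole values. This was a log2 change of 0.78 ± 0.06 (edgeR adjusted p = 1.15e-07).

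Rars and Cars had the largest fitted changes and a wider spread. For the arginyl enzyme gene Rars the nocodazole libraries held 139, 145, 108 and 118 CPM and the DMSO libraries 71.6, 65.8, 74.1 and 69.2 CPM, which is a log2 change of 0.86 ± 0.11 by edgeR (adjusted p = 1.97e-05). For the cysteinyl enzyme gene Cars the nocodazole libraries held 113, 104, 153 and 128 CPM and the DMSO libraries 66.0, 61.5, 77.8 and 70.8 CPM, which is a log2 change of 0.85 ± 0.11 by edgeR (adjusted p = 1.93e-05). Neither gene's groups overlapped. Nocodazole replicate 2 was the highest of its group for Rars, and for 14 of the 20 cytosolic genes, whereas replicate 3 was the highest for Cars and the lowest for Rars.

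Lars, for leucine, had 215, 231, 203 and 212 CPM in nocodazole neurons, against 139, 128, 146 and 140.2 CPM in DMSO neurons. Aars, for alanine, had 672.5, 649.6, 667 and 722 CPM in nocodazole neurons, against 452, 424, 455 and 468.5 CPM in DMSO neurons. In both genes every nocodazole library lay above every DMSO library, and the log2 changes were 0.64 ± 0.07 (edgeR adjusted p = 2.56e-06) and 0.59 ± 0.06 (edgeR adjusted p = 9.16e-07). Aars shares 1326 exonic bases on the same strand with the annotated gene Exosc6, which had no count in any library.

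The other 7 genes that rose were Eprs (0.53), the joined glutamyl and prolyl enzyme, Iars (0.46), Vars (0.45), Wars (0.40), Gars (0.38), Nars (0.36) and Yars (0.31), values being log2 changes. Wars, for tryptophan, was the weakest of these calls: its nocodazole libraries held 219 to 344 CPM and overlapped the DMSO range of 204 to 226 CPM, the edgeR adjusted p was 0.0492, and the call was lost in 15 of 24 alternative analyses, in which p ran from 0.0155 to 0.153. The other 12 calls held in all 24.

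The cytosolic class was not uniform. Qars, the glutaminyl enzyme gene, fell, with 46.1, 48.1, 42.7 and 46.8 CPM in nocodazole neurons against 54.3, 51.0, 51.3 and 55.6 CPM in DMSO neurons (log2 change -0.21 ± 0.05, edgeR adjusted p = 0.00633). Kars, for lysine, also fell, with 95.2, 94.9, 85.3 and 93.5 CPM in nocodazole neurons against 103, 103, 98.7 and 111 CPM in DMSO neurons (log2 change -0.17 ± 0.05, edgeR adjusted p = 0.0151). Farsa, the alpha subunit of the phenylalanyl enzyme, had 40.2, 43.1, 40.5 and 37.1 CPM in nocodazole neurons against 44.4, 44.9, 44.1 and 47.1 CPM in DMSO neurons (log2 change -0.16 ± 0.06, edgeR adjusted p = 0.0311). In each of the 3 genes every nocodazole library lay below every DMSO library, but without DMSO replicate 4 the calls for Farsa and Kars were lost, at edgeR adjusted p of 0.0852 and 0.0539. The Farsa call was lost in 8 of 24 alternatives, also without nocodazole replicate 1 or 4 or DMSO replicate 2, and the Kars call in 2; the highest adjusted p, 0.137 for Farsa and 0.0798 for Kars, came with scaling by total counts only.

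Hars, for histidine, had 142, 145, 144 and 149.7 CPM in nocodazole neurons, against 139.5, 145, 141 and 155 CPM in DMSO neurons, the closest pair of groups in the class (log2 change 0.0007 ± 0.05). Mars1 (-0.02 ± 0.07), Dars (0.03 ± 0.08) and Farsb (0.11 ± 0.07), for methionine, aspartate and the beta subunit of the phenylalanyl enzyme, were also not called. Of the 8 genes whose products sit in the multisynthetase complex (Dars, Eprs, Iars, Kars, Lars, Mars1, Qars and Rars), 4 rose and 2 fell, with a median log2 change of 0.25. Of the 12 cytosolic genes outside the complex, 9 rose and 1 fell, with a median of 0.39. Over all genes tested, 18.6% were called higher and 19.0% lower, and the difference between the sets was not tested.

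Among mitochondrial genes, 5 fell, 2 rose and 9 were not called, where 19.0% of all genes were called lower and 18.6% higher. Fars2, for phenylalanine, had 45.3, 48.3, 40.4 and 45.1 CPM in nocodazole libraries, against 64.6, 64.8, 63.1 and 65.3 CPM in DMSO libraries. The groups did not overlap, and the log2 change was -0.53 ± 0.07 (edgeR adjusted p = 3.69e-05). Fars2 shares 501 exonic bases on the opposite strand with Nrn1, which encodes the neuronal protein neuritin, had 197 to 278 CPM in nocodazole and 293 to 316 CPM in DMSO libraries, and also fell (log2 change -0.44 ± 0.09, edgeR adjusted p = 0.00142). Strand use in the counting is not given in the sources used here, so reads from this stretch cannot be told apart.

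Pars2, for proline, was low throughout, with 3.28, 3.71, 2.75 and 3.71 CPM in nocodazole libraries against 4.39, 4.63, 4.75 and 4.16 CPM in DMSO libraries (log2 change -0.41 ± 0.14, edgeR adjusted p = 0.0248). Vars2 (-0.26), Ears2 (-0.25) and Iars2 (-0.18), for valine, glutamate and isoleucine, were the other genes that fell, by log2 changes. The Pars2 call was lost in 4 of 24 alternatives (without nocodazole replicate 1 or 3 or DMSO replicate 2 or 3; adjusted p up to 0.0630). The Vars2 call was lost in 5 (without nocodazole replicate 3 or DMSO replicate 1 or 4 among them; up to 0.0911) and the Ears2 call in 11 (without nocodazole replicate 1, 2 or 4 or DMSO replicate 1, 3 or 4 among them; up to 0.0985). Calls for Fars2 and Iars2 held in all 24. Iars2 shares 2034 exonic bases on the opposite strand with Rab3gap2, which rose by 0.28 ± 0.05 on the log2 scale. Other members with opposite-strand exon overlap are Mars1 (68 bases with Ddit3), Aars (77, an annotated miRNA), Vars2 (465), Cars2 (422), Nars2 (284), Farsb (248), Cars (211, a pseudogene), Ears2 (89), Yars (30) and the pair Hars and Hars2 (195).

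Nars2 and Mars2 rose, opposite in sign to the small mitochondrial median log2 change of -0.10. Nars2, for asparagine, had 14.3, 15.4, 11.9 and 13.3 CPM in nocodazole neurons against 11.6, 11.7, 10.6 and 10.3 CPM in DMSO neurons (log2 change 0.32 ± 0.09, edgeR adjusted p = 0.00961). Mars2, for methionine, had 44.8, 45.0, 47.3 and 43.5 CPM in nocodazole neurons against 40.8, 37.4, 36.5 and 35.0 CPM in DMSO neurons (log2 change 0.27 ± 0.05, edgeR adjusted p = 0.00102). Neither pair of groups overlapped, although the lowest Nars2 nocodazole library was close to the highest DMSO library. Yars2, for tyrosine, was nearest to 0 (0.01 ± 0.08), with 11.7, 12.7, 11.1 and 11.2 CPM in nocodazole neurons and 11.3, 11.3, 11.5 and 12.2 CPM in DMSO neurons.

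Lars2, the mitochondrial leucyl enzyme gene, varied most within groups. It had 54.0, 93.5, 65.5 and 56.9 CPM in inhibitor-plus-nocodazole libraries, 52.0, 47.0, 37.2 and 88.9 in nocodazole, 691, 162, 68.2 and 181 in inhibitor, and 384.5, 91.8, 91.0 and 66.2 CPM in DMSO libraries. Replicate 1 of the inhibitor group and replicate 1 of the DMSO group stood apart from the rest. The same 2 libraries were the highest in the mitochondrial ribosomal RNA mt-Rnr2, at 60.9 and 37.5 CPM against at most 27.7 CPM in the other 14, and its part in the Lars2 values was not tested. No Lars2 comparison was called (for nocodazole over DMSO the log2 change was -1.49 ± 0.62, edgeR adjusted p = 0.0669). Class levels below are therefore given with and without Lars2.

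**Figure D2:**
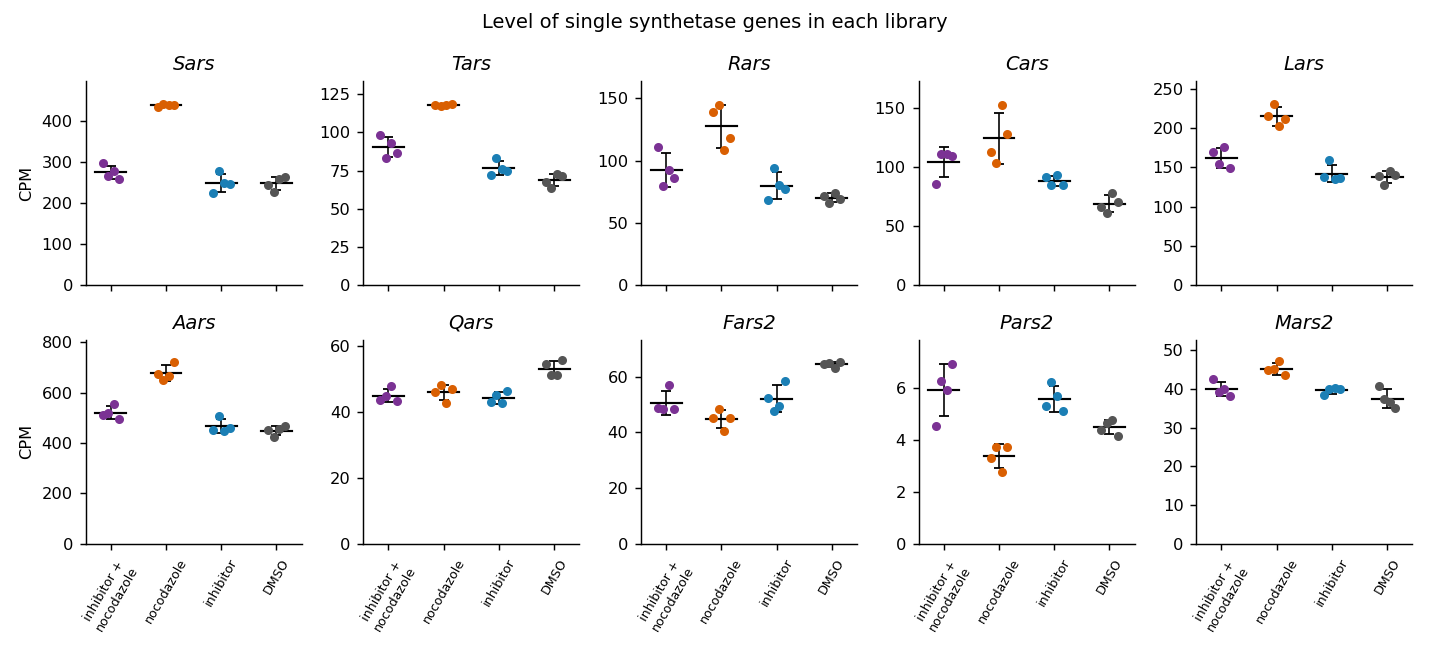
CPM of 10 members in each library (points), with the group mean (long line) and SD (bars, n = 4), in the order inhibitor plus nocodazole, nocodazole, inhibitor and DMSO; each axis starts at 0. Nocodazole libraries lie above all others for Sars, Tars, Lars, Aars and the mitochondrial Mars2, and below all others for Pars2.

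Within a library the difference between the classes does not depend on how libraries are scaled. The mean log2 CPM of the 20 cytosolic genes was 7.19 ± 0.07 in inhibitor-plus-nocodazole, 7.39 ± 0.05 in nocodazole, 7.07 ± 0.07 in inhibitor and 7.05 ± 0.06 in DMSO libraries (SD, n = 4 each). For the 15 mitochondrial genes without Lars2 it was 4.22 ± 0.03, 4.17 ± 0.04, 4.21 ± 0.03 and 4.25 ± 0.04 in the same order. The difference of the means was 2.97 ± 0.09, 3.22 ± 0.01, 2.86 ± 0.06 and 2.80 ± 0.05, and with Lars2 included it was 2.86 ± 0.10, 3.12 ± 0.03, 2.64 ± 0.12 and 2.63 ± 0.09. In either form all 4 nocodazole libraries lay above the other 12. Without Lars2 inhibitor-plus-nocodazole libraries (2.91 to 3.10) overlapped inhibitor libraries (2.80 to 2.94) and lay above DMSO libraries (2.74 to 2.85). With Lars2 included, inhibitor-plus-nocodazole libraries (2.76 to 3.00) lay just above inhibitor libraries (2.49 to 2.74) and above DMSO libraries (2.51 to 2.71). Summed over the 20 cytosolic genes, synthetase RNA was 3829 ± 220 CPM in inhibitor-plus-nocodazole, 4582 ± 175 in nocodazole, 3476 ± 209 in inhibitor and 3366 ± 145 CPM in DMSO libraries.

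**Figure D3:**
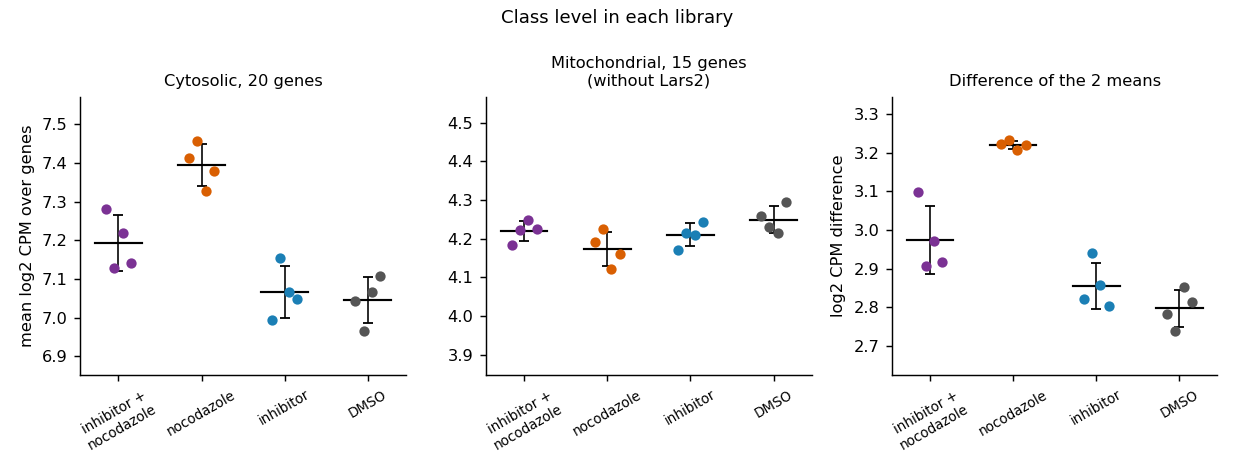
Mean log2 CPM over the 20 cytosolic genes (left), over the 15 mitochondrial genes without Lars2 (middle) and their difference (right) in each library (points), with group mean and SD (lines); the 3 vertical axes span the same width. The difference is about 3.22 in nocodazole libraries and 2.80 in DMSO libraries.

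The ratio of a cytosolic gene to the mitochondrial gene for the same amino acid compares the classes by amino acid. Among 16 such pairs, the count ratio was higher in all 4 nocodazole than in all 4 DMSO libraries for 12, lower for 1 and overlapping for 3. The share of other gene pairs that lie apart in this way was not computed. Eprs is paired with both Ears2 and Pars2, and both ratios are among the 12. So is Farsa over Fars2, where Farsa fell (log2 change -0.16) and Fars2 fell more (-0.53). Sars over Sars2 was 27.9 to 29.98 in nocodazole against 14.3 to 17.7 in DMSO libraries, and Cars over Cars2 was 8.78 to 10.8 against 4.15 to 5.58. For methionine the order was reversed, with Mars1 over Mars2 at 1.99 to 2.27 in nocodazole against 2.36 to 3.04 in DMSO libraries. The overlapping pairs were those for histidine, asparagine and tryptophan. Comparing inhibitor-plus-nocodazole with inhibitor libraries, only Tars over Tars2 was apart (2.93 to 3.39 against 2.63 to 2.86), and 15 pairs overlapped.

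**Figure D4:**
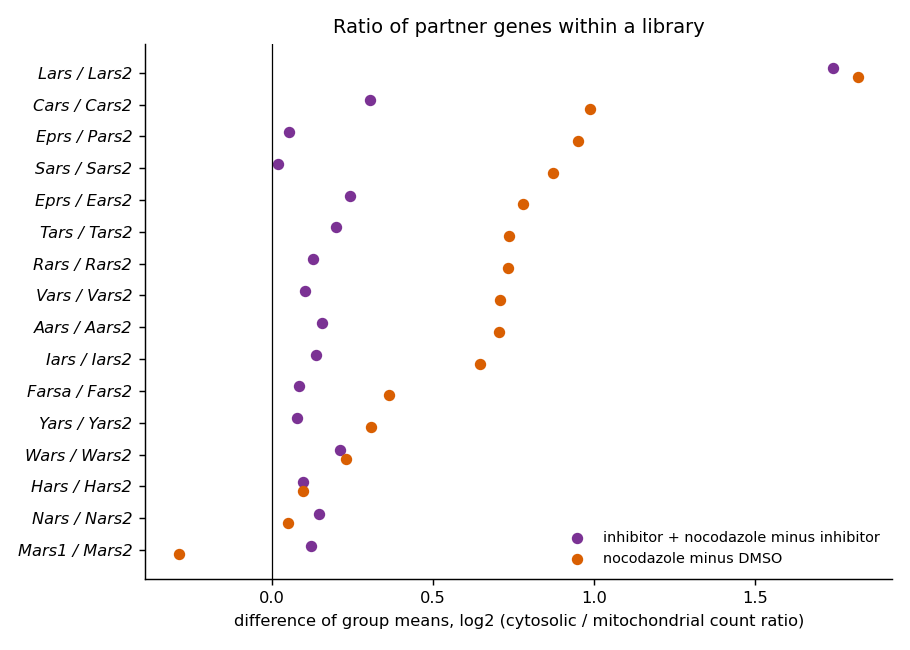
Difference between group means of the log2 count ratio of each cytosolic gene to its mitochondrial partner, for inhibitor plus nocodazole minus inhibitor (purple) and nocodazole minus DMSO (orange). Orange points reach 0.99 for Cars / Cars2 and -0.29 for Mars1 / Mars2; the Lars / Lars2 points (1.74 and 1.82) rest on the variable Lars2 libraries.

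With the inhibitor present, no synthetase was called for nocodazole by edgeR, where 0.0835% of all genes were called (16 genes). At an unadjusted p below 0.05, 8 cytosolic and 1 mitochondrial genes passed, against 5.98% of all genes, and DESeq2 called 1 cytosolic gene (Tars) and 125 genes in all (0.974% of those it tested). The cytosolic median was 0.14, with 18 of 20 log2 changes above 0, and the mitochondrial median 0.02. Sars had 297, 265, 276.5 and 259 CPM in inhibitor-plus-nocodazole libraries against 225, 278, 247 and 246 CPM in inhibitor libraries, which overlap (log2 change 0.14 ± 0.06). Tars had 98.0, 83.4, 93.0 and 86.6 CPM against 72.2, 83.2, 76.0 and 74.7 CPM in the same groups, just without overlap, a position held by 2.03% of all genes (log2 change 0.24 ± 0.06, edgeR adjusted p = 0.211).

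The effect of the inhibitor on the nocodazole change was tested as an interaction, the change with inhibitor minus the change without. Here 9 cytosolic genes were lower and 1 was higher, against 9.20% and 9.52% of all genes, and 1 mitochondrial gene was lower and 1 higher. The lower ones were Sars (-0.68 ± 0.09, edgeR adjusted p = 0.000135), Rars (-0.66 ± 0.16), Cars (-0.61 ± 0.16), Tars (-0.54 ± 0.09), Lars (-0.45 ± 0.10), Aars (-0.44 ± 0.08), Eprs (-0.40 ± 0.11), Iars (-0.29 ± 0.10) and Nars (-0.22 ± 0.07) on the log2 scale. Calls for the first 7 held in all 23 alternatives, and those for Iars and Nars were lost in 14 and 16, among them single libraries left out of each group. Qars was higher (0.23 ± 0.08), a call lost in 15 of 23. The highest adjusted p of these 3 genes, 0.111 for Iars, 0.175 for Nars and 0.1 for Qars, came with no filter on low counts. Fars2 was higher by 0.49 ± 0.10 (edgeR adjusted p = 0.00414) in all 23, and Mars2 lower by 0.26 on the log2 scale, lost in 10. Fars2 fell both with nocodazole (-0.53) and with the inhibitor alone (-0.31). Reads from the stretch that Fars2 shares with Nrn1 cannot be told apart. For Gars, Vars, Wars and Yars, which rose with nocodazole, the interaction was not called, so a difference of their nocodazole change with the inhibitor was not shown; their log2 interaction values ran from -0.29 to -0.19.

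The inhibitor alone against DMSO was followed by few calls, where 5.78% of all genes were higher and 7.24% lower. Cars was higher by 0.36 ± 0.11 on the log2 scale, a call lost in 9 of 24 alternatives, each of them 1 library left out (adjusted p up to 0.117). Hars (-0.25 ± 0.05), Qars (-0.26 ± 0.05) and Farsa (-0.19 ± 0.06) fell, as did the mitochondrial Fars2 (-0.31 ± 0.07) and Sars2 (-0.25 ± 0.07). The Farsa call was lost in 9 of 24 alternatives (without inhibitor replicate 2 or 3 or DMSO replicate 2, 3 or 4 among them; adjusted p up to 0.135) and the Sars2 call in 4 (without inhibitor replicate 2 or 3 or DMSO replicate 4 among them; up to 0.0702), whereas those for Hars, Qars and Fars2 held in all 24. Qars had 42.9, 45.0, 42.6 and 46.4 CPM in inhibitor libraries against the DMSO values above, and the inhibitor and nocodazole ranges overlapped. Fars2 had 52.3, 47.5, 49.6 and 58.6 CPM in inhibitor libraries, all below the DMSO libraries, and its opposite-strand neighbour Nrn1 fell by 0.41 on the log2 scale in the same comparison. The median log2 change was 0.05 over the cytosolic and -0.03 over the mitochondrial genes.

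Inhibitor-plus-nocodazole neurons were also compared with nocodazole and with DMSO neurons. Against nocodazole neurons, 9 cytosolic genes were lower and 1 (Mars1, 0.22 ± 0.07) higher, where 16.2% of all genes were lower and 17.7% higher. The Mars1 call was lost in 7 of 24 alternatives (without nocodazole replicate 1, 2 or 4 or inhibitor-plus-nocodazole replicate 2, 3 or 4 among them; adjusted p up to 0.0830). Sars (-0.67), Rars (-0.47), Lars (-0.41), Tars (-0.39), Aars (-0.38) and Eprs (-0.33) were the 6 lower cytosolic genes whose call held in all 24 alternatives. Calls for Vars (-0.29), Gars (-0.22) and Nars (-0.16) were lost in 1, 3 and 7 of 24, each of them without nocodazole replicate 2. Cars (-0.25 ± 0.11, edgeR adjusted p = 0.0876) and Iars (-0.13 ± 0.07, edgeR adjusted p = 0.156) were lower in the interaction but not called here. Of the mitochondrial genes Pars2 (0.81 ± 0.14), Vars2 (0.29) and Iars2 (0.27) were higher, and Nars2 (-0.31) and Mars2 (-0.18) lower. The calls for Vars2 (lost without nocodazole replicate 3 or inhibitor-plus-nocodazole replicate 2 or 3 among others; adjusted p up to 0.0755) and Mars2 (without inhibitor-plus-nocodazole replicate 4 among others; up to 0.0710) were each lost in 4 of 24 alternatives. Pars2 had 4.54, 6.26, 5.93 and 6.92 CPM in inhibitor-plus-nocodazole libraries, all above the nocodazole libraries. This comparison and the nocodazole comparison share the nocodazole libraries, so opposite signs in them are not independent.

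Against DMSO, 8 cytosolic genes were higher in inhibitor-plus-nocodazole neurons and 1 was lower, where 8.26% of all genes were higher and 8.48% lower. The higher ones were Cars (0.60 ± 0.11), Rars (0.40 ± 0.11), Tars (0.39 ± 0.06), Iars (0.34 ± 0.07), Lars (0.23), Aars (0.21), Nars (0.21) and Yars (0.19) on the log2 scale, and Qars was lower (-0.24 ± 0.05). Cars had 85.7, 111, 112 and 109 CPM in inhibitor-plus-nocodazole libraries, all above the 4 DMSO libraries, and 91.6, 84.8, 93.0 and 85.2 CPM in inhibitor libraries. Calls for Cars, Iars and Tars held in all 24 alternatives, and the count of higher genes fell to 3 without inhibitor-plus-nocodazole replicate 3 and to 4 without DMSO replicate 1 or replicate 2. Of the mitochondrial genes, 1 was lower (Fars2, -0.35 ± 0.07).

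Inhibitor-plus-nocodazole replicate 1 was the highest library of its group for 13 of 20 cytosolic genes. It held 96.3 CPM of Ddit3, the stress gene that encodes CHOP, against 48.6, 49.1 and 49.8 CPM in the other 3 libraries of its group. For Rars it held 111 CPM, against 79.8, 92.6 and 85.8 CPM in the other 3. Without it, the interaction called 12 cytosolic genes lower in place of 9 and 3 mitochondrial genes higher in place of 1.

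Known ATF4 targets, translation genes and genes that work with or resemble the synthetases were read from lists. The lists were chosen with earlier results of these data known, so their counts are a description and no test. Of 31 known ATF4 targets, 30 rose with nocodazole and 0 fell, against 18.6% and 19.0% of all genes, with a median log2 change of 0.84; Nupr1 (4.36 ± 0.75), Ppp1r15a (2.75 ± 0.33) and Ddit3 (2.73 ± 0.28) changed most. The interaction called 22 of the 31 lower, against 9.20% of all genes, and 24 were higher in inhibitor-plus-nocodazole than in DMSO neurons, against 8.26%. The inhibitor alone called 9 of the 31 higher and 0 lower, against 5.78% and 7.24% of all genes. With the inhibitor present, nocodazole called 0 of the 31, against 0.0835% of all genes. Atf4 itself had 373, 347, 377 and 414 CPM in inhibitor-plus-nocodazole, 384, 439.6, 354 and 329 in nocodazole, 281, 291, 294 and 275 in inhibitor and 227, 201, 254 and 262 CPM in DMSO libraries. Inhibitor-plus-nocodazole and nocodazole libraries overlapped (log2 difference 0.0046 ± 0.09), and both lay above the DMSO libraries. The inhibitor libraries also lay above the DMSO libraries, and the interaction was not called (-0.27 ± 0.13, edgeR adjusted p = 0.152). Atf3, another stress-induced transcription factor gene, rose by 5.38 ± 0.39 with nocodazole and had an interaction of -4.41 ± 0.58.

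Map3k12, the gene for DLK, fell by 0.35 on the log2 scale with nocodazole (SE 0.06). Of 9 cofactor genes of cytosolic charging, 2 rose, the tRNA exportin gene Xpot (0.57 ± 0.08) and the complex scaffold gene Aimp1 (0.23 ± 0.06), and 1 fell, Dtd1 (-0.35), which encodes a deacylase of mischarged tRNA. Among 19 cytosolic translation factors, 5 rose and 3 fell, and like the counts of cofactors these lie near the shares of all genes called higher (18.6%) and lower (19.0%). The largest changes were those of Eif4ebp1 (1.12 ± 0.08), which encodes an inhibitor of cap-dependent initiation and is also in the ATF4 list, Eif5 (0.42 ± 0.05) and Eef1a2 (-0.40 ± 0.14). Of 19 tested partners of mitochondrial translation, 0 rose and 7 fell with nocodazole, against the same 18.6% and 19.0%, with a median of -0.09. Gtpbp3, which encodes a tRNA-modifying enzyme, fell by 0.41, the elongation factor gene Tsfm by 0.28 and the tRNA 3′-processing enzyme gene Elac2 by 0.24 on the log2 scale. The interaction called 4 of these 19 partners higher and 0 lower, against 9.52% and 9.20% of all genes. Of 3 synthetase-like genes, only Tarsl2 was called (-0.26).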

How the data were processed

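The authors deposited counts as whole numbers, 1 column for each of 16 libraries and 1 line for each Ensembl gene. Per the labels' protocols, total RNA was depleted of ribosomal RNA before library construction. Per the submitters' processing notes, STAR, Salmon and GRCm39 were used; versions, strand settings and the treatment of shared reads are not given in the sources used here. Symbols (52080 identifiers matched), exon lengths and exon overlaps came from GENCODE M21 on GRCm38, so no gene coordinates are given; promoter windows came from RefSeq with their own build.

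Counts were scaled by TMM (factors 0.959 to 1.06) and filtered with filterByExpr, and the 16 libraries entered a single quasi-likelihood model of the 4 group means (edgeR 4.0.16, limma 3.58.1, R 4.3.3). P-values were adjusted by Benjamini-Hochberg across the 19156 genes, with calls below 0.05; SE come from the test. CPM use scaled library sizes, and class levels are means of log2 CPM (prior count 2). Within groups, 24 pairs of libraries differed by more than counting noise (chi-square per degree of freedom 7.52 to 45.9). Alternatives were 3 other scalings, DESeq2 1.42.0, 2 other filters, the replicate block, fits of the compared groups only (not for the interaction) and leaving out each library.

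Members, lists and motifs were chosen with earlier results of these data known, so classes are described by counts and medians and have no test. Values in every library are given for the 6 cytosolic and 4 mitochondrial genes with the largest called nocodazole change, up to 6 with the lowest interaction p, up to 3 a class called against its median, and the one nearest 0 in each; of other lists the 3 largest called changes are named. Lars2, Nrn1, Rab3gap2 and mt-Rnr2 were added after their values were seen.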

Additional observations from a re-analysis of the deposited data

Results flagged for a closer look

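For 12 members the nocodazole change differed between inhibitor-treated and inhibitor-free neurons by the interaction test (edgeR adjusted p below 0.05 over all genes). The log2 difference, change with inhibitor minus change without, was -0.68 for Sars, -0.66 for Rars, -0.61 for Cars, -0.54 for Tars, -0.45 for Lars, -0.44 for Aars, -0.40 for Eprs, -0.29 for Iars and -0.22 for Nars. It was 0.23 for Qars, 0.49 for Fars2 and -0.26 for Mars2.

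In 9 of 144 sets of 4 libraries (36 genes in 4 groups) 1 library lay apart from the other 3 by Dixon's test, and chance alone gives about 1 in 20. The statistic is the gap to the nearest library over the range of the group. Highest libraries apart were Lars in inhibitor (0.913, replicate 2), Vars in inhibitor plus nocodazole (0.913, replicate 1) and in DMSO (0.957, replicate 4), Wars in inhibitor plus nocodazole (0.848, replicate 1), Fars2 in inhibitor plus nocodazole (0.925, replicate 3) and Lars2 in DMSO (0.92, replicate 1). Lowest libraries apart were Cars in inhibitor plus nocodazole (0.903, replicate 1), Aars2 in nocodazole (0.832) and Cars2 in inhibitor (0.922).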

How the results depend on the processing

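Each member's change was recomputed under up to 24 alternatives, and no called member changed sign; for a member called neither way, a change of sign was not counted. Changes of scaling: with total counts only, nocodazole against DMSO called 1 cytosolic and 3 mitochondrial genes lower, nocodazole with inhibitor 30 genes in all, inhibitor plus nocodazole against nocodazole 1 mitochondrial gene lower and against DMSO 1 mitochondrial gene higher, and the interaction 0 cytosolic genes higher. With upper-quartile scaling, the inhibitor alone called 2 cytosolic genes higher, inhibitor plus nocodazole against DMSO 1 mitochondrial gene higher and the interaction 0 cytosolic genes higher. DESeq2 called 1 cytosolic gene higher and 125 genes in all for nocodazole with inhibitor, and 1 mitochondrial gene higher and 2 lower for inhibitor plus nocodazole against DMSO. With no filter, the inhibitor alone called 1 mitochondrial gene lower, nocodazole with inhibitor 28 genes in all, inhibitor plus nocodazole 1 mitochondrial gene lower against nocodazole and 4 cytosolic genes higher against DMSO, and the interaction 0 cytosolic genes higher and 0 mitochondrial genes lower. With the stricter filter the last comparison called 0 cytosolic genes higher, and inhibitor plus nocodazole against DMSO 1 mitochondrial gene higher. With only the groups compared in the fit, nocodazole with inhibitor called 6 genes, inhibitor plus nocodazole against nocodazole 0 cytosolic genes higher and 1 mitochondrial gene lower, and against DMSO 2 mitochondrial genes lower. The cause of these shifts was not tested.

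Pairing of the samples by replicate number was not shown. The 24 same-number correlations of deviations between groups ran from -0.399 to 0.232, 8 of them above 0.1. Those of replicate 4 ran from -0.048 to 0.217. Of 16 libraries, 5 correlated best with their own number. With the replicate block, nocodazole with inhibitor called 5 genes and the interaction 0 cytosolic genes higher; other counts stayed within 1.5 times.

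Leaving out each library in turn, nocodazole against DMSO called 12 to 13 cytosolic genes higher, 1 to 3 lower, 2 mitochondrial genes higher and 3 to 6 lower. The inhibitor alone called 0 to 1 cytosolic genes higher, 1 to 3 mitochondrial genes lower and 1242 to 3087 genes in all. Nocodazole with inhibitor called 3 to 88 genes and 0 members. Inhibitor plus nocodazole against nocodazole called 0 to 1 cytosolic genes higher, 7 to 12 lower and 1 to 2 mitochondrial genes lower. Against DMSO it called 3 to 9 cytosolic genes higher, 1 to 3 lower, 0 to 1 mitochondrial genes higher, 1 to 2 lower and 2096 to 3510 genes in all. The interaction called 0 to 2 cytosolic genes higher, 7 to 12 lower, 1 to 3 mitochondrial genes higher and 0 to 1 lower.

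For the class levels, given as inhibitor plus nocodazole, nocodazole, inhibitor and DMSO, the median over members in place of the mean gave 4.01, 4.05, 3.97 and 4.00 for the mitochondrial level and 3.16, 3.37, 3.07 and 3.14 for the difference. By the mean with Lars2 the mitochondrial level was 4.33, 4.27, 4.42 and 4.42, so nocodazole was lowest by the mean and highest by the median. In the difference nocodazole was highest by both, but nearer to DMSO by the median (3.37 against 3.14) than by the mean (3.12 against 2.63). Inhibitor plus nocodazole was close to DMSO by the median (3.16 against 3.14) and further from it by the mean (2.86 against 2.63). The order of inhibitor and DMSO turned in both quantities. The cytosolic median was 7.14 in DMSO. Leaving out Lars2, chosen after its values were seen, gave mitochondrial levels of 4.22, 4.17, 4.21 and 4.25 and differences of 2.97, 3.22, 2.86 and 2.80. Without Gars and Kars the cytosolic mean was 6.97 in DMSO, and the difference 3.08 in nocodazole. Depth limits Pars2 most, at 91 counts in its lowest library.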
